A study of Mus musculus with 61 samples.

Results

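The genes followed here are 8 genes of the choroid plexus epithelium: Ttr, Folr1, Kl, Kcne2, Clic6, Aqp1, Otx2 and Slc4a5. They were taken as a named list and measured, per gene, with the probe of the highest mean signal among those whose RefSeq accession gives the symbol. A probe was matched for 7 of the 8, out of 16358 genes named in this way on the array. No probe of Slc4a5, a sodium bicarbonate cotransporter, was matched, and it is not analysed here. The tissue came from 6 untreated male C57BL/6J mice of 8 weeks, whose brains were perfused with an RNA preservative, frozen and cut whole. Each brain gave 1 series of fractions, and each fraction pools 200 sections of 5 µm, or 1 mm of brain. The S (sagittal, 9 fractions), C (coronal, 13) and H (horizontal, 6) series were cut in orthogonal planes, and the So (10), Co (16) and Ho (7) series in planes slightly oblique to them. A fraction holds every cell type of its slice, so fewer plexus cells and less RNA per plexus cell cannot be told apart.

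The choroid plexus is a folded sheet of epithelium on a vascular core that hangs into the brain ventricles and secretes cerebrospinal fluid. It lies in the lateral ventricle of each hemisphere, at the roof of the third ventricle on the midline of the forebrain, and in the fourth ventricle under the cerebellum. The aqueduct that joins the third and the fourth ventricle through the midbrain carries no plexus. The fractions were therefore read along each axis for separate rises at these places.

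The 7 measured genes fall into a few roles. Ttr (transthyretin, a thyroid hormone carrier) and Folr1 (folate receptor alpha) serve carriage from blood to cerebrospinal fluid. Kcne2 (a potassium channel subunit), Clic6 (a member of the chloride intracellular channel family) and Aqp1 (a water channel) belong to ion and water transport. Kl (Klotho) is a coreceptor of the hormone FGF23, and Otx2 is a homeodomain transcription factor that plexus development requires. Of the 8 genes, 5 have an entry in the RefSeq promoter table (build GRCm38.p6), with 9 windows of 250 bases before to 50 bases after a start. These windows were searched on both strands for TAATCC, core letters of the Otx motif, and TGTTTA, core letters of forkhead motifs. The letters TAATCC occur in 7.06% and TGTTTA in 13.4% of all 32851 windows of that length. Among the 9 windows, 1 held a match: 1 of the 4 windows of Otx2 holds TAATCC on its reverse strand, at position -211 from the start. The other windows of Otx2 hold no match. The 250 upstream bases are shown for Otx2 (chr14:48665110-48665359, strand -), whose coronal profile lacks the rostral top of the others, and for Kl and Kcne2 (chr5:150952357-150952606 and chr16:92292139-92292388, both on the + strand), which follow the common profile and hold no match. Capitals mark the match, and a link between match and profile was not tested.
Otx2: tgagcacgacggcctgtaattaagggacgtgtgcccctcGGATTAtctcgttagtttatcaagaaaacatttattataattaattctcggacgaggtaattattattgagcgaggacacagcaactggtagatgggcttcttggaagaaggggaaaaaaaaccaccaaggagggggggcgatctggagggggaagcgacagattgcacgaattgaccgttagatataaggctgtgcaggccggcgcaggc
Kl: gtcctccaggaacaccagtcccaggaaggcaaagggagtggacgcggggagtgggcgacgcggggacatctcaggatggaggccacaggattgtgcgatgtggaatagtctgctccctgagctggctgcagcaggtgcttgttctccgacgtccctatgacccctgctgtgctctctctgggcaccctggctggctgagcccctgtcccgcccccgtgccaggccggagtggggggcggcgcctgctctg
Kcne2: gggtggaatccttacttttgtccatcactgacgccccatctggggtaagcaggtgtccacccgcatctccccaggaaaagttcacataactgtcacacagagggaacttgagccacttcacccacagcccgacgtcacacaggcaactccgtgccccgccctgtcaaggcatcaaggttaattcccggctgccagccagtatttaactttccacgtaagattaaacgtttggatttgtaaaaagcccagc

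Levels are log2 of the processed signal minus log2 of the 75th percentile of the same array, so that 0 is the level of a probe at that percentile. The percentile was 737 to 1919 signal units over the 61 arrays, and 57.9% to 73.1% of the probes were well above background. The partner fractions of the study's pairing (28 pairs, for example C4 with Co5) served as replicates, 1 mouse each. The study chose partners by the highest correlation between these same arrays, and by anatomical order where several fractions matched 1 fraction. The spread between partners, and with it each p-value, depends on that choice. A pair was called the level of a region where a set of genes known for that region peaked, which gave C1 and Co2 for the medulla, C4 and Co5 for the cerebellum, C6 and Co7 for the midbrain, C8 and Co9 for the thalamus, C10 and Co11 for the striatum and C13 and Co15 for the olfactory bulb. The cerebellum genes were nearly as high in C3 and Co4 (a centred mean of 4.16 against 4.19). The p-values given are from limma fits across all detected probes with Benjamini-Hochberg adjustment. They rest on the spread between partner fractions of 2 mice per plane, pooled over the 28 pairs.

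All 7 genes varied over the 28 pairs, with moderated F of 12.2 for Otx2 to 28.6 for Clic6 and adjusted p of 9.63e-09 and 5.66e-13 (limma). Of all detected probes, 61.2% were called by this test, so the call by itself does not set these genes apart. The residual SD between partners was 0.35 for Kl, 0.38 for Clic6, 0.51 for Folr1, 0.53 for Otx2, 0.62 for Aqp1, 0.77 for Ttr and 0.78 for Kcne2 (log2). The range along a series was far wider than this in the coronal brains. Ttr spanned 7.55 in C and 7.04 in Co, and Kl, with the smallest coronal range in C, spanned 3.40 there and 4.18 in Co.

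Along the coronal axis, from posterior to anterior, 6 of the 7 genes formed a caudal and a rostral peak in both brains. The trough between the peaks lay at the midbrain level or in the fraction just caudal to it. A peak is a fraction above its neighbours whose log2 level falls by at least 1 on each inner side. Ttr had its lowest level in C at -5.17 (C1), its median at -1.64 and its highest at 2.38 (C3). It stood at 1.81 in C4, fell to -3.24 in C5 and -2.14 in C6, and rose again to 1.40, 1.38 and 1.20 in C7, C8 and C9. In Co the lowest level was -3.97 (Co2), the median -1.82 and the highest 3.07 (Co4). Co5 was at 2.86, the trough at -2.07 and -3.36 (Co6 and Co7), and the rostral rise at 1.94, 2.37 and 2.31 (Co8 to Co10). The caudal rise was thus narrow, with 2 fractions within 1 log2 unit of its top, and the rostral one flat over 3 fractions. Striatal and more anterior fractions stayed at or below -1.64 in C and at or below -1.79 in Co.

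Folr1 ran in parallel. It peaked at 1.43 in C3 and 1.97 in Co4, fell to -2.59 in C5 and -3.13 in Co7, and returned to 1.11 in C7 and 1.27 in Co10. Kl rose less, from troughs of -2.42 and -2.50 (C5 and Co6) to caudal tops of 0.57 and 1.05 and rostral tops of 0.25 and 0.34. Kcne2 stood at 2.23 in C3 and 2.69 in Co4, at -2.90 in C5 and -4.00 in Co7, and at 1.04 and 1.12 in C8 and Co9. Clic6 stood at 2.74 and 3.17 at the caudal tops, -1.16 and -1.95 in the troughs, and 2.11 and 2.54 at the rostral tops (C8 and Co10). Aqp1 was at -1.68 and -0.52 (C3 and Co4), -6.42 and -5.88 (C5 and Co7), and -1.95 and -1.04 (C7 and Co10). The caudal tops of all 7 genes were in partner fractions, C3 and Co4. In these 6 genes the smallest fall beside either peak was 2.66, so that both peaks also pass when a fall of 2 is required. Lower peaks outside these places were found in Co for Ttr and Kcne2 at Co14 (-1.85 and -2.85). End fractions, which have an inner side only, counted as peaks at Co1 for Ttr, Folr1, Kcne2 and Aqp1, at Co16 for Ttr, Kl, Kcne2, Clic6 and Aqp1, and at C13 for Aqp1 and Otx2. End fractions included, at least 2 peaks were found for 7 of 7 genes in C, where the second peak of Otx2 was C13 at -5.24, and for 6 of 7 in Co, against 20.2% and 20.8% of all probes detected.

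The caudal top was above the rostral top in both brains for each of the 7 genes but Otx2, which had no rostral top. The difference was 0.98 in C and 0.70 in Co for Ttr, 0.32 and 0.70 for Folr1, 0.32 and 0.71 for Kl, and 1.19 and 1.57 for Kcne2. It was 0.63 in both brains for Clic6, and 0.27 and 0.52 for Aqp1. The highest rostral fractions of Otx2, C7 and Co8, stood 0.43 and 0.17 above its trough and 0.97 and 1.08 below its caudal top. These are differences between fractions picked by their height and carry no test.

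**Figure D1:**
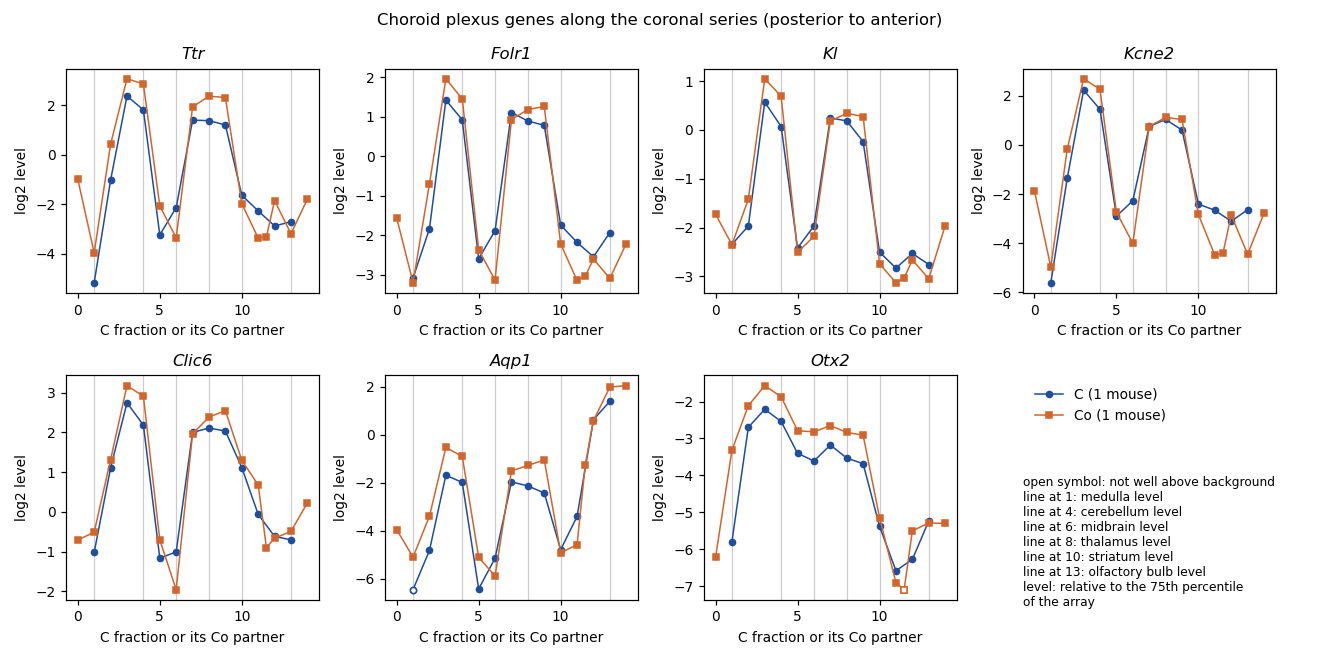
Log2 level (relative to the array's 75th percentile) of the 7 genes along the coronal series from posterior (left) to anterior (right), with each Co fraction placed at its C partner and Co1, Co13 and Co16, which have none, between or beyond the others. Circles are C and squares are Co, 1 mouse each; 6 genes have a top at C3 and Co4, a trough at C5 to C6 and a flat top at C7 to C9, while Otx2 shows no rostral top and Aqp1 rises again to 1.40 at C13 and 2.05 at Co16.

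Both rises held against the pooled spread between partner fractions where the region levels were set by other genes. At the cerebellum level, 6 of the 7 genes were higher than at the midbrain level, where 9.70% of all detected probes were called higher (limma). Ttr was at 1.81 in C4 and 2.86 in Co5 against -2.14 in C6 and -3.36 in Co7, and the difference was 5.09 ± 0.74 (log2, SE), or 34.0-fold, with an adjusted p of 4.56e-06. Clic6 differed by 4.02 ± 0.37 (16.3-fold, adjusted p = 7.79e-10), Kcne2 by 4.99 ± 0.76 (31.8-fold, adjusted p = 8.61e-06) and Kl by 2.45 ± 0.34 (5.48-fold, adjusted p = 1.92e-06). For Folr1 and Aqp1 the differences were 3.70 and 4.07. In the C and the Co brain Kcne2 differed by 3.72 and 6.26, and Ttr by 3.95 and 6.22. With 1 array left out the difference ran from 4.12 to 5.86 for Kcne2 and from 4.48 to 5.70 for Ttr. A further probe of Folr1 changed less, from -5.11 in C6 and -5.27 in Co7 to -2.83 in C4 and -2.40 in Co5. Otx2 differed by 1.01 ± 0.52 and was not called (adjusted p = 0.19), but with levels averaged over neighbouring pairs it was called at a like size (1.02, adjusted p = 0.031). The median over the 7 genes was 4.02, against 0.14 over all probes. Of all calls in this comparison 49.9% were higher, and 34.2% when arrays were scaled to their median, which moved the median of all probes from 0.14 to -0.01, and 6 of the 7 genes were called under both scalings.

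At the thalamus level the same 6 genes were higher than at the midbrain level, where only 0.922% of all probes were called higher. Ttr was at 1.38 in C8 and 2.37 in Co9, 4.62 ± 0.74 above the midbrain level (24.6-fold, adjusted p = 0.00049). Folr1 differed by 3.55 ± 0.49 (adjusted p = 7.42e-05), Clic6 by 3.73 ± 0.37 (adjusted p = 3.10e-07), Kl by 2.34 ± 0.34 (adjusted p = 0.00015), Aqp1 by 3.81 ± 0.61 (adjusted p = 0.00041) and Kcne2 by 4.22 ± 0.76 (adjusted p = 0.0020). The other probe of Folr1 gave a smaller difference (2.30 ± 0.30, 4.94-fold, against 11.7-fold), as it did at the cerebellum against the medulla level (5.05-fold, against 20.1-fold) and at the thalamus against the dorsal level of the horizontal axis (3.34-fold, against 15.3-fold), and it was called in each. The call of Kcne2 rested on Co7, and without that fraction its adjusted p was 0.12 with a difference of 3.35. Otx2 stood at -3.53 and -2.84 at the thalamus level against -3.61 and -2.82 at the midbrain level, a difference of 0.03 ± 0.52. The arrays of C5 to C8 shared 1 slide, so that both sides of this comparison lay on the same slide in the C brain. In the Co brain Co5 to Co8 shared a slide and Co9 lay on the next, and within the shared slide Ttr went from -3.36 in Co7 to 1.94 in Co8. Other comparisons crossed slides in 1 or in both brains. C4 and C6, C8 and C10, and H1 and H3 lay on different slides, while their partners in Co and Ho shared a slide. For cerebellum against medulla, C1 and C4 shared a slide, and Co2 and Co5 did not. For cerebellum against thalamus, slides were crossed in both brains (C4 and C8, Co5 and Co9). Among the paramedian fractions, S4 and So4 shared a slide with the midline fraction of their brain (S6 and So6), and S8 and So8 did not. H3 and H5 shared a slide, and Ho4 and Ho6 did not.

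At the rostral edge, 6 of 7 genes were higher at the thalamus level than at the striatum level (0.662% of all probes were). The differences were 3.68 ± 0.74 for Ttr (12.8-fold, adjusted p = 0.0055), 3.02 ± 0.49 for Folr1, 2.88 ± 0.34 for Kl, 3.70 ± 0.76 for Kcne2, 3.15 ± 0.61 for Aqp1 and 2.08 ± 0.52 for Otx2 (adjusted p = 0.040). Clic6 was the exception. It stood at 1.11 in C10 and 1.30 in Co11, and its difference of 1.04 ± 0.37 was not called (adjusted p = 0.27). With levels averaged over neighbouring pairs its difference was 1.36 and was called (adjusted p = 0.00083). The other probe of Folr1 gave a smaller difference here too (3.84-fold, against 8.12-fold) and was called. Without Co9 the number called was 2, and Ttr, Kcne2, Aqp1 and Otx2 lost their calls with differences of 3.19, 3.66, 2.72 and 1.73 and adjusted p of 0.19, 0.10, 0.15 and 0.57. Otx2 also lost its call when any of C8, C10 and Co11 was left out, with the table normalized by the authors (2.03, adjusted p = 0.059) and with normexp and quantile normalization (0.92, adjusted p = 0.065).

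At the caudal edge, all 7 genes were higher at the cerebellum level than at the medulla level, and 6.06% of all probes were. Kcne2 differed by 7.14 ± 0.76 (141-fold, adjusted p = 1.55e-07) and Ttr by 6.91 ± 0.74 (120.1-fold, adjusted p = 1.81e-07). Folr1 and Aqp1 both differed by 4.33, Clic6 by 3.31, Kl by 2.73 and Otx2 by 2.35 ± 0.52 (adjusted p = 0.0026). Of the meningeal genes 3 of 5, Dcn, Slc6a13 and Aldh1a2, were lower at the cerebellum level, and their part was not tested. Aqp1 was not well above background in C1, which leaves 1 of 2 measured values at the medulla level. Otx2 differed by 3.26 in the C brain and by 1.45 in the Co brain, and lost its call without C1 (adjusted p = 0.26) or Co5 (adjusted p = 0.066), and with levels averaged over neighbouring pairs (1.08, adjusted p = 0.063).

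Between the cerebellum and the thalamus level, none of the 7 genes was called different, although 21.2% of all probes were (limma, and 0 of the 7 at an unadjusted p under 0.05). Of all calls 49.7% were higher at the cerebellum level, and 36.9% with median scaling, which moved the median of all probes from 0.05 to -0.07. The estimates for the 7 genes ranged from 0.12 for Kl to 0.98 for Otx2. Their 95% confidence intervals were wide: -1.06 to 1.99 for Ttr, -0.78 to 2.33 for Kcne2, -0.45 to 1.05 for Clic6 and -0.58 to 0.81 for Kl. This result depended on how wide a level is taken. When each level was averaged with its neighbouring pairs, 4 genes were called lower at the cerebellum: Folr1 by -0.89, Kl by -0.59, Clic6 by -0.65 and Aqp1 by -1.05. The widened cerebellum level includes C5 and Co6, which lie in the trough.

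To ask whether any gene changed its share against Ttr between the caudal and the rostral plexus, the level of Ttr was taken off each array. None of the other 6 genes was called (limma, 0 at an unadjusted p under 0.05), against 1.51% of all probes. With levels averaged over neighbouring pairs Otx2 was called, at 1.70 relative to Ttr (adjusted p = 0.0085). That widened cerebellum level includes C5 and Co6, in the trough of Ttr. There Ttr stood at -3.24 and -2.07, and Otx2 at -3.40 and -2.79. The value of 1.70 is therefore not one of caudal against rostral plexus fractions alone. In single pairs the estimates were 0.52 ± 0.84 for Otx2, 0.31 ± 0.77 for Kcne2, -0.17 ± 0.81 for Clic6, -0.20 ± 0.84 for Aqp1, -0.32 ± 0.79 for Folr1 and -0.35 ± 0.80 for Kl. Otx2 was 0.56 higher relative to Ttr at the cerebellum level in the C brain and 0.47 higher in the Co brain, while Kcne2 was at -0.03 and 0.64.

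Otx2 departed from the common coronal profile. In C it was at -2.21 at its top (C3), and stayed between -3.68 and -3.18 from C5 to C9, with -5.38 in C10 and -6.58 in C11. In Co it was at -1.57 at Co4 and between -2.91 and -2.65 from Co6 to Co10, with -5.15 in Co11 and -7.10 in Co13, where it was not well above background. The trough that the other 6 genes had at or just caudal to the midbrain level was therefore replaced by a plateau that ended before the striatum. Otx2 is also known from the pineal gland. The 3 measured pineal genes (Aanat, Tph1 and Crx) had a summed level, in units of the array's 75th percentile, of 0.054 in C6 and 0.494 in Co7, and of 0.036 in C8 and 0.041 in Co9. Their part in the plateau was not tested.

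Aqp1 departed at the anterior end. After its rostral plexus rise it fell to -4.78 in C10 and -4.91 in Co11, then rose to -3.40, 0.64 and 1.40 in C11 to C13. In Co it went from -4.57 in Co12 through -1.24 and 0.59 to 2.00 and 2.05 in Co15 and Co16. The anterior tops were above the caudal ones (-1.68 in C3 and -0.52 in Co4). The other 6 genes stood at or below -0.49 in C12, C13, Co14 and Co15, and in Co16 Clic6 was the highest of them at 0.23. Genes of meningeal fibroblasts (Dcn, Lum, Col1a1, Slc6a13 and Aldh1a2) also rose there: their summed level, in units of the array's 75th percentile, was 5.39 in C10 and 27.9 in C13, and 7.02 in Co11, 23.3 in Co14 and 73.5 in Co16. The 2 measured blood genes (Hba-a1 and Alas2) went from 1.44 to 7.63 between C10 and C13, and the 4 endothelial genes from 11.9 to 31.2. In C1 and Co2, at the medulla level, the meningeal sum was 30.2 and 28.9 and the blood sum 11.1 and 4.24, while Aqp1 stood at -6.44 and -5.09. The part of these cell types in the anterior rise was not tested.

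Clic6 departed on the rostral slope. Between the thalamus and the striatum level it differed by 0.99 in the C brain and 1.09 in the Co brain, where Ttr differed by 3.02 and 4.34. Clic6 then declined to -0.07 in C11 and 0.68 in Co12. A further probe of Clic6 gave a difference of 1.03 ± 0.36 (adjusted p = 0.25) between these levels.

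**Figure D2:**
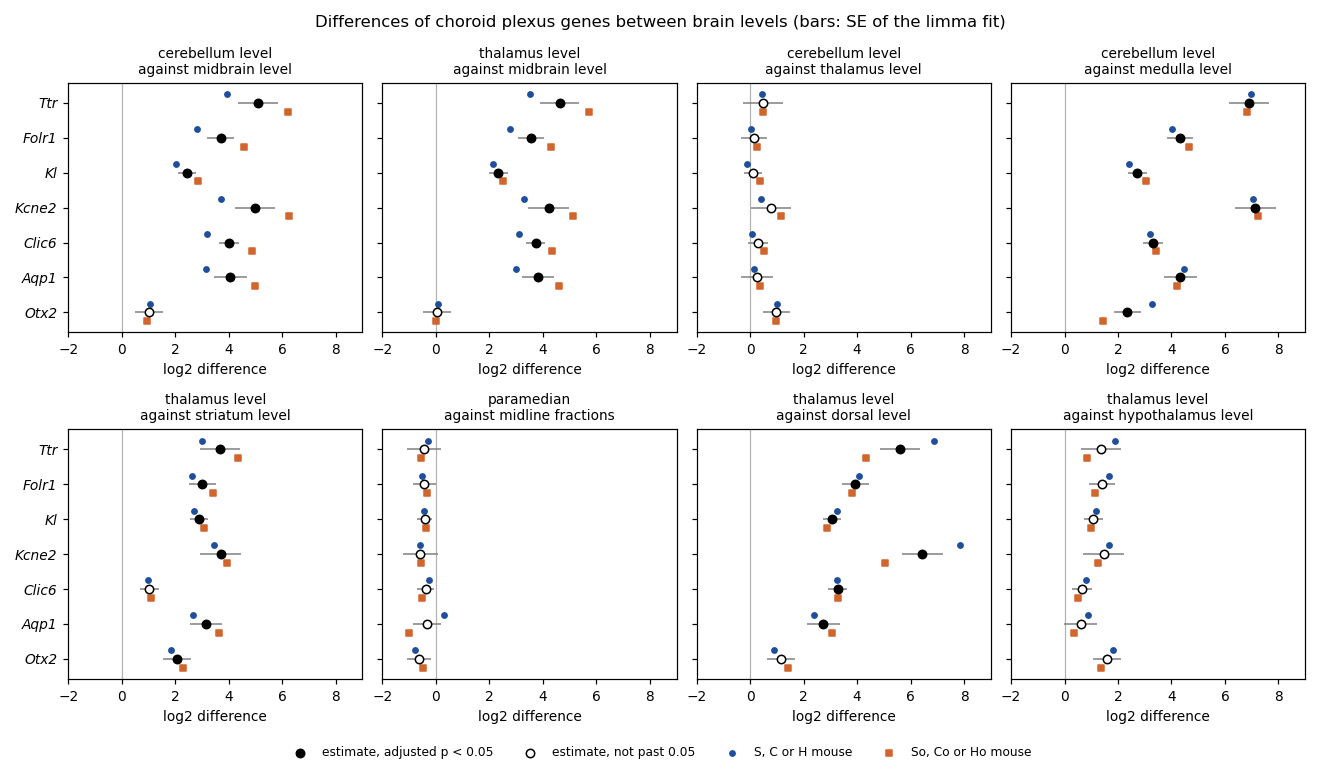
Log2 differences between region levels for the 7 genes, 1 panel per comparison; large circles are limma estimates with their SE, filled where the adjusted p was under 0.05, and small symbols are the differences in each mouse. The cerebellum and the thalamus level both exceed the midbrain level for all genes but Otx2, while cerebellum against thalamus, paramedian against midline and thalamus against hypothalamus show no filled large circle.

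The other plexus genes were read from a list of 24, of which 22 had a probe. No probe was matched for Kcnj13 and Wdr86. At the cerebellum level 14 of the 22 were higher than at the midbrain level and none was lower, with a median of 1.04 against 4.02 for the 7 genes and 0.14 for all probes. Of the 14, Lmx1a was not well above background on any of the 4 arrays, nor Tmem72 on those of the midbrain level. At the thalamus level 11 were higher than at the midbrain level and none lower, and 11 were higher than at the striatum level. The largest of these changes between cerebellum and midbrain, among genes well above background on all 4 arrays, were in F5 (coagulation factor V), Steap1 (of a metalloreductase family), Cldn2 (a tight junction protein) and Calml4, at 12.1-, 11.4-, 9.60- and 8.38-fold. Enpp2 (autotaxin), Prlr (the prolactin receptor), Sostdc1 (a secreted BMP and Wnt inhibitor), Trpv4 (an osmosensitive cation channel), Abca4 and Msx1 were also higher at both levels. Igf2 (a growth factor that meninges also make), Slc13a4 (a sulfate transporter), Car12, Slc4a2, Ace, Cldn1, Htr2c and Wfikkn2 were not called between cerebellum and midbrain. Against the medulla level, 11 were higher at the cerebellum level and 1 was lower (4.87% of all probes were lower): Htr2c, a serotonin receptor that neurons also carry, was 1.65-fold lower. Of the 11, Lmx1a was not well above background on any of the 4 arrays, nor were Tmem72 and F5 on those of the medulla level. Between the cerebellum and the thalamus level 3 of the 22 were called, where 21.2% of all probes were. Slc29a4, a monoamine transporter, was 0.93 ± 0.27 higher at the cerebellum level (adjusted p = 0.011), as was Igfbp2 by 0.74 ± 0.25 (adjusted p = 0.030). Lmx1a was the other gene called, and it was not well above background on any array of these levels.

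Ependymal cells line the ventricles. All 4 measured genes (Foxj1, a regulator of motile cilia, Dynlrb2, Rarres2 and Mia) were higher at the cerebellum than at the midbrain level, with a median difference of 1.54. At the thalamus level 2 of the 4, Dynlrb2 and Mia, were higher than at the midbrain level, none was called against the striatum level, and 1, Dynlrb2, was higher at the cerebellum than at the medulla level. Their summed level, in units of the array's 75th percentile, was 6.40 and 6.37 at the cerebellum level, 3.00 and 2.51 at the midbrain level and 5.88 and 5.96 at the thalamus level (C and Co). Of the 5 meningeal genes none was called between cerebellum and midbrain, and 1, Dcn, was lower at the thalamus than at the midbrain level (0.249% of all probes were). None of the 4 endothelial or 2 blood genes was called in either comparison. Tph1 of the pineal genes was lower at the cerebellum level, where it was not well above background, than at the midbrain level (9.75% of all probes were lower), and Pomc, a pituitary and hypothalamus gene, was higher at the thalamus level than at the midbrain level. Their part in the plexus rises was not tested.

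Along the sagittal axis, from left to right, Ttr, Folr1, Kl, Kcne2 and Clic6 formed a broad high region with 3 local tops. These lay at the midline fraction 6 and, on each side of it, at fractions 3 and 9. In S, Ttr was lowest at -4.28 (S2), had a median of 1.24 and was highest at 2.17 (S3). It read 1.80 and 0.92 in S4 and S5, 1.82 in S6, 0.82 and 1.24 in S7 and S8, 2.08 in S9 and 0.48 in S10. In So the tops were 1.80 (So3), 1.80 (So6) and 1.69 (So9), with 1.10 in So5 and 0.69 in So7 between them. The tops lay in partner fractions of the 2 brains, and the dips between them were shallow.

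Folr1 repeated these tops with 1.38, 1.01 and 0.98 in S3, S6 and S9 and 0.72, 0.74 and 0.71 in So. Its dips were at -0.11 and -0.18 in S5 and S7 and at 0.09 and -0.28 in So5 and So7. Kcne2 had 1.72, 1.46 and 1.56 in S and 1.06, 1.18 and 1.11 in So. For Kl the tops were 0.42, 0.12 and 0.23 in S and -0.16, -0.12 and -0.24 in So, and for Clic6 they were 2.09, 1.94 and 2.12 in S and 1.98, 2.23 and 1.92 in So. With the rule of a fall of at least 1 on each inner side, 3 tops were called in S for Folr1 and Kcne2 only, since several dips were just under 1. At least 2 peaks were found for 4 of 7 genes in S and 2 of 7 in So, against 7.97% and 7.87% of all probes detected. End fractions are included, and the second peak of Aqp1 in So was the end fraction So1 (-3.69). In So a midline top was called for Folr1, Kl, Kcne2, Clic6 and Aqp1, and lateral tops for Ttr. So6 was the highest So fraction of the former genes, so that its fall on the left was measured down to the edge fraction So2. On the right it was measured to So7 for Folr1 and Kcne2 (1.02 and 1.05) and to the edge fraction So10 for the others. These calls mark the highest fraction of a broad high region, and not a midline peak set apart on its left side. The lateral tops of Ttr in So passed narrowly. The smaller fall was 1.17 for So3, measured down to the edge fraction So10 (0.63), and 1.00 for So9, measured down to So7. The lowest level between these tops was 0.69, in So7. With normexp and quantile normalization the number of Ttr peaks in So was 1. With a fall of 2 no peak was left in So, and 1 each for Kcne2 and Otx2 in S. The calls of Folr1 depended on the probe: its other probe gave 1 peak in S and 0 in So, and normexp with quantile normalization gave 0 in So. Aqp1 and Otx2 differed between the brains: Aqp1 dipped to -2.49 at S5 but held -1.38 at So5, and Otx2 had tops at S3, S6 and S9 but a plateau from So4 to So6. Aqp1 had no top at S6 (-2.20, below -1.70 in S7) and none at So3 (-1.76, below -1.37 in So4).

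**Figure D3:**
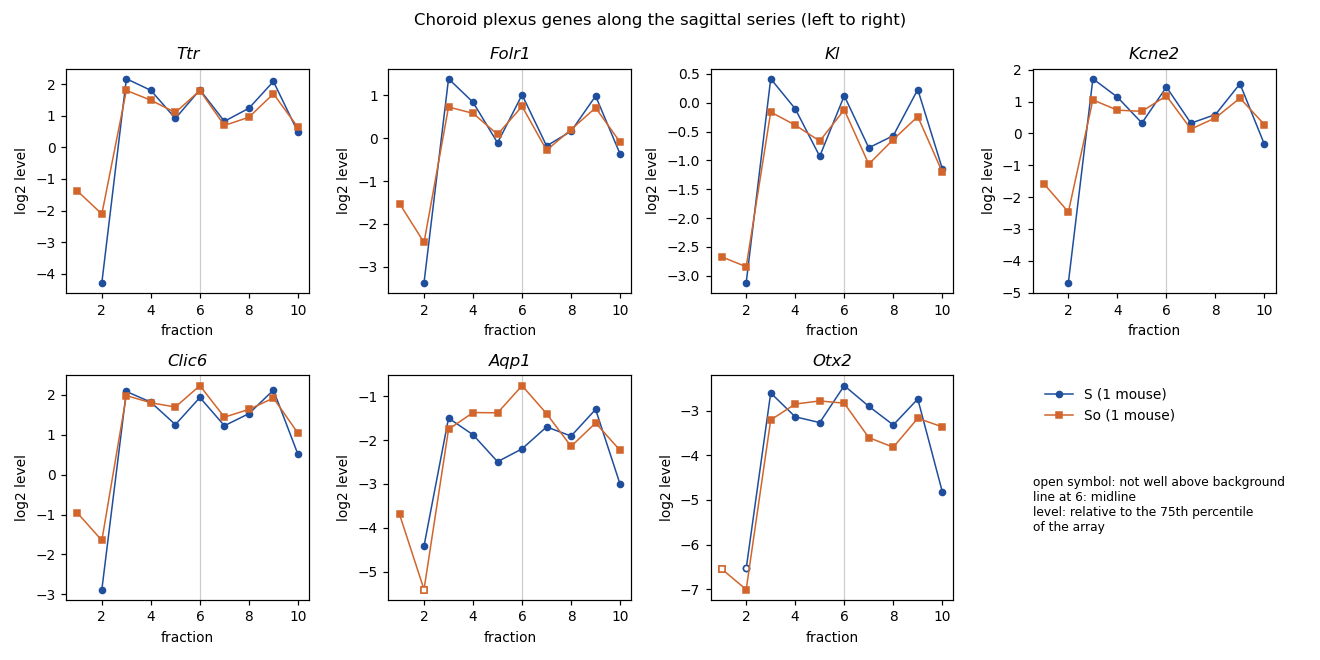
Log2 level (relative to the array's 75th percentile) of the 7 genes along the sagittal series from left to right, with partner fractions at the same number. Circles are S and squares are So, 1 mouse each, and open symbols were not well above background; Ttr, Folr1, Kl, Kcne2 and Clic6 have tops at fractions 3, 6 and 9 in S, at dips of about 1 log2 unit, and low levels at fraction 2.

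No difference between paramedian and midline fractions was detected. The mean of the fractions 2 from the midline (4 and 8) minus the midline pair was -0.44 ± 0.64 for Ttr, -0.43 ± 0.43 for Folr1, -0.42 ± 0.30 for Kl, -0.58 ± 0.66 for Kcne2, -0.39 ± 0.32 for Clic6, -0.35 ± 0.52 for Aqp1 and -0.65 ± 0.45 for Otx2. Aqp1 differed by 0.31 in the S brain and by a negative value in the So brain, and the other 6 genes by a negative value in both. None was called (limma, 0 of 7 at an unadjusted p under 0.05), against 0.637% of all probes. The 95% interval for Kl ran from -1.03 to 0.18 and that for Ttr from -1.75 to 0.88. With the fractions 3 from the midline (3 and 9) in their place, 0 of 7 were called too, and the estimate was above 0 for 4 genes (0.13 for Ttr, 0.07 for Folr1, 0.06 for Kl and 0.04 for Kcne2) and below 0 for Clic6, Aqp1 and Otx2. Among the ependymal genes, Rarres2 and Dynlrb2 were lower in the paramedian fractions, with differences of -0.96 ± 0.20 and -1.37 ± 0.25 (0.555% of all probes were lower).

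Left and right fractions differed most at the edge. Between fractions 3 and 9, the right minus left difference of Ttr was -0.09 in S and -0.11 in So, and that of Clic6 was 0.03 and -0.06. Between fractions 2 and 10 the same difference was 4.76 and 2.74 for Ttr, 4.34 and 2.74 for Kcne2 and 3.39 and 2.69 for Clic6. The right edge thus read higher in both brains for each of the 7 genes. The left and the right fractions of a number need not lie at the same distance from the true midline, and the part of the cutting position was not tested.

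Along the horizontal axis, from dorsal to ventral, the genes formed a single main rise. In H, Ttr was at -5.63, -1.43, 1.23, 1.74, -0.65 and -0.41 in fractions 1 to 6. In Ho it was at -2.17, -2.88, 0.69, 1.44, 1.04, 0.58 and 0.26 in fractions 1 to 7. The top was fraction 4 in both brains for each of the 7 genes, although the study pairs Ho4 with H3 and not with H4. Clic6 rose again in the most ventral fraction of H, from 1.04 to 1.82, and not in Ho, where it went from 1.54 to 1.35.

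**Figure D4:**
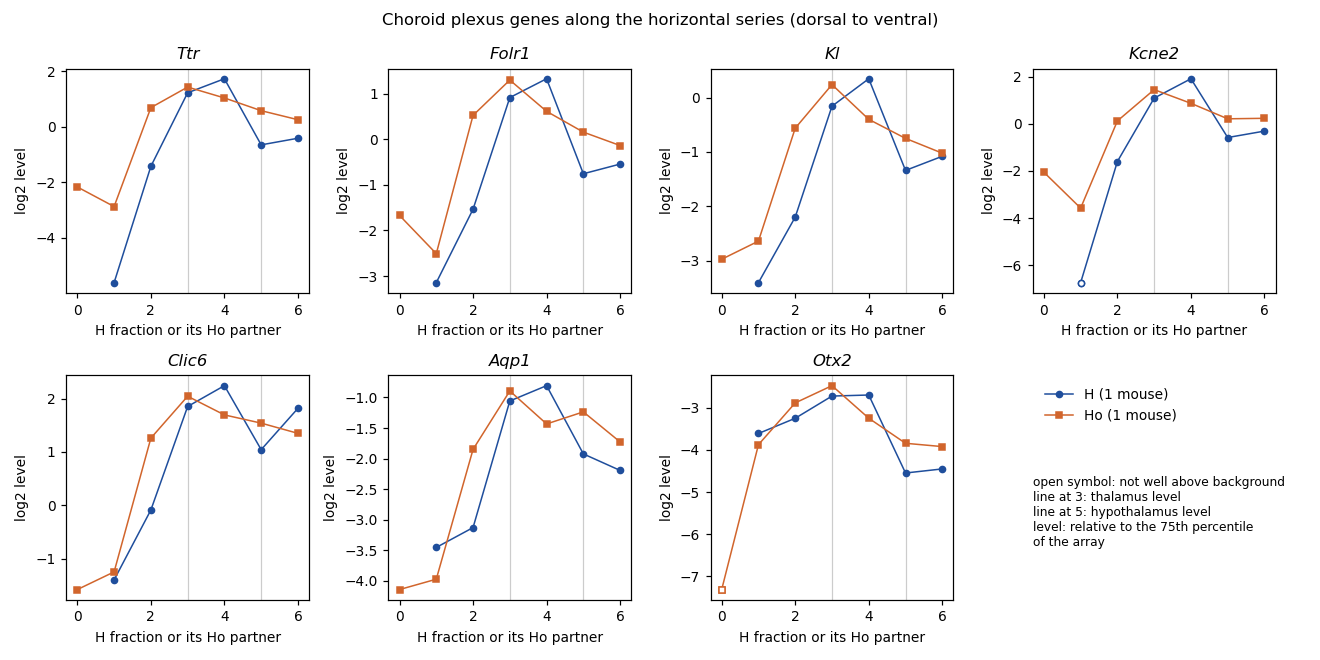
Log2 level (relative to the array's 75th percentile) of the 7 genes along the horizontal series from dorsal (left) to ventral (right), with each Ho fraction placed at its H partner and Ho1, which has none, at 0. Circles are H and squares are Ho, 1 mouse each; every gene is highest at H4 and Ho4, so that the Ho top lies 1 step to the left of the H top.

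At the thalamus level of this axis (H3 and Ho4), 6 of 7 genes were higher than in the dorsal pair (H1 and Ho2), where 3.45% of all probes were. Of all calls 76.5% were higher, and 50.7% with median scaling, which moved the median of all probes from 0.02 to -0.13, and 6 of the 7 genes were called under both. Kcne2 differed by 5.04 in the Ho brain. In H1 it was not well above background, so that 1 of the 2 dorsal arrays measured it, and the fitted difference of 6.44 ± 0.76 (adjusted p = 4.40e-06) rests in part on a value at background. Ttr differed by 5.59 ± 0.74 (48.1-fold, adjusted p = 1.71e-05), with 6.86 in the H brain and 4.32 in the Ho brain, and by 4.21 without H1 and 6.96 without Ho2. The differences were 3.94 for Folr1, 3.27 for Clic6, 3.06 for Kl and 2.74 ± 0.61 for Aqp1 (adjusted p = 0.0057). Aqp1 lost its call without Ho4 (adjusted p = 0.069), and Otx2 (1.14 ± 0.52, adjusted p = 0.27) was not called. The summed level of the 3 pineal genes was 3.51 in H1 and 0.335 in Ho2, against 0.047 in H3 and 0.051 in Ho4, and its part in the dorsal level of Otx2 (-3.61 and -3.88) was not tested. Of the other plexus genes 13 of 22 were higher, as were all 4 ependymal genes, while Col1a1 of the meningeal genes and Tph1 and Crx of the pineal genes were lower (1.06% of all probes were lower), Crx being not well above background at the thalamus level.

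Against the hypothalamus level (H5 and Ho6), none of the 7 genes was called, with estimates from 0.60 ± 0.61 for Aqp1 to 1.59 ± 0.52 for Otx2, all higher at the thalamus level and in both brains. Of all probes, 1.03% were called (limma), and 3 of the 7 genes had an unadjusted p under 0.05. With the mouse as a replicate block, Otx2 was called (adjusted p = 0.0395).

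The fractions at the outer ends of the oblique series, which have no partner, read higher than their inner neighbours in several genes. Ttr was at -0.99 in Co1 and -3.97 in Co2, at -1.79 in Co16 and -3.20 in Co15, at -2.17 in Ho1 and -2.88 in Ho2, and at -1.38 in So1 and -2.11 in So2. Kcne2 was at -1.87 and -4.97 in Co1 and Co2, and at -2.05 and -3.58 in Ho1 and Ho2. Otx2 was lower at the end in Co1 (-6.22, against -3.32 in Co2) and Ho1 (-7.31, against -3.88 in Ho2). It was not well above background in Ho1 and in So1, the latter at -6.55 beside -7.01 in So2, and it stood at -5.30 in Co16 and -5.29 in Co15. The blood sum was 9.46 in Co1 and 4.24 in Co2, and 4.97 in Ho1 and 3.19 in Ho2, and its part was not tested.

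Over all 61 fractions the profiles of Ttr, Folr1, Kl, Kcne2 and Clic6 ran together, with pairwise Pearson r from 0.88 to 0.99. With these, Otx2 had r of 0.66 to 0.76 and Aqp1 of 0.42 to 0.46, and the 2 had r = 0.18 with each other. Fractions of a series share the animal and, in groups, the slide, so these values describe the profiles and carry no p. With the mean profile of the 7 genes, r was 0.97 for Folr1, Ttr and Kl, 0.96 for Kcne2, 0.93 for Clic6, 0.76 for Otx2 and 0.55 for Aqp1.

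Among the 15101 other named genes with complete values, 12 had an r above 0.9 with that mean, and the median over all was 0.00. The 10 most alike were Steap1 (r = 0.97), Trpv4 and F5 (0.96), Tmem72 (0.96), Cldn2 (0.95), Sostdc1 and Vpreb1 (0.93), Defb11 and Krt18 (0.92) and Slc16a8 (0.91). Of these, 6 belong to the plexus list. Krt18 is a keratin of simple epithelia: it was at 0.82 in C3, -2.42 in C6 and 0.26 in C8. Slc16a8 encodes a lactate transporter. Vpreb1 (a part of the pre-B cell receptor) was at -2.45, -4.46 and -2.87 in C3, C6 and C8, and Defb11 (a beta-defensin) at -3.63, -5.89 and -3.95. The r of the plexus list ran from -0.07 for Igf2 to 0.97 for Steap1, over the 21 genes with complete values. For ependymal genes it was 0.54 to 0.63, and for meningeal genes -0.46 to 0.00.

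**Figure D5:**
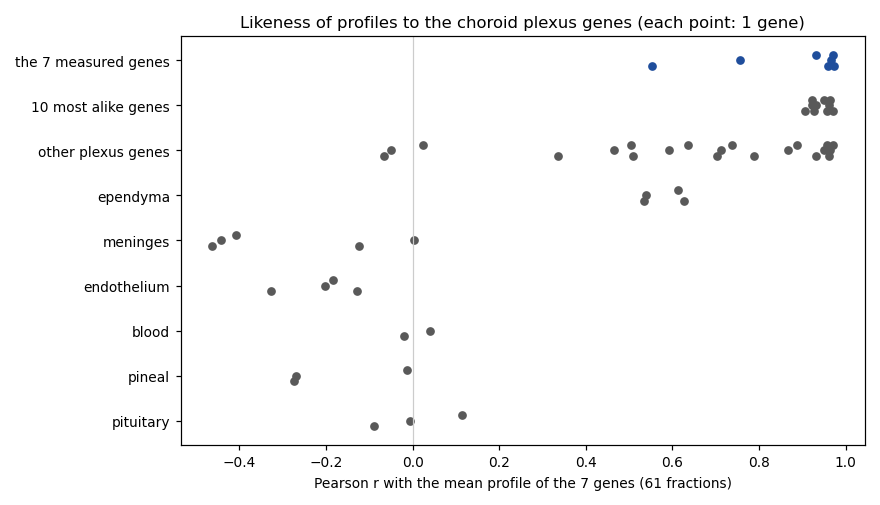
Pearson r over 61 fractions between each gene (points) and the mean profile of the 7 measured genes, by gene list; the 7 genes themselves are part of that mean. Values lie between 0.54 and 0.63 for ependymal genes and at or below 0.11 for the meningeal, endothelial, blood, pineal and pituitary genes.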

How the data were processed

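RNA of 61 fractions from 6 mouse brains was hybridised to 1-colour Agilent arrays, 1 array per fraction. The authors deposited the scanner output of Agilent Feature Extraction 9.1, whose processed signal is a background-subtracted intensity per spot. They also deposited a table of intensities normalized per array, which was put on a log2 scale for its use as an alternative. Of the scanner files, the processed signal was used after control spots and outlier spots were left out. Spots were put on a log2 scale and averaged per probe, and the 75th percentile of the array's log2 probe values was subtracted. Probes well above background on at least 1 array (36573 of 41174) were tested. Symbols came from RefSeq accessions, with the probe of the highest mean signal for a gene.

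The 28 pairs of partner fractions (56 arrays, 5 fractions without a partner left out) were fitted with limma 3.58.1 in R 4.3.3, with 1 term per pair and 28 residual degrees of freedom, and p-values were adjusted by Benjamini-Hochberg over all tested probes at 0.05. Partner fractions come from 2 mice of a plane, and the residual spread was pooled over the 28 pairs of all planes. The p-values rest on that spread between partner fractions. Fractions of a brain share the animal but were fitted as independent. Fractions of the same mouse deviated together (median r = 0.28 over 129 combinations, 115 above 0.1, against -0.03 for other mice), and the mouse within its plane was used as a replicate block in an alternative.

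Peaks, correlations and likeness are descriptions. The genes named are the 8 genes, the genes of the cell type lists and the 10 genes most alike. The members and lists were chosen with earlier results of these data known. Alternatives were median scaling, the authors' table, normexp with an offset of 50 and quantile normalization, other probe filters, slide and scan day as blocks, wider levels, other probes, other peak falls and leaving out each array. In simulated data for cerebellum against midbrain (35984 probes, 200 changed), 41% of changes of 1 and 68% of changes of 2 on the log2 scale were recovered, with 9 false calls. Profiles were computed in Python 3.11.15 with numpy 2.4.6 and pandas 2.3.3, and plotted with matplotlib 3.10.9.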

Additional observations from a re-analysis of the deposited data

Results flagged for a closer look

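In the S brain, the leftmost fraction S2 was the lowest of 9 and stood far from the others in 5 genes. The level there was -4.28 for Ttr, -3.37 for Folr1, -3.12 for Kl, -4.69 for Kcne2 and -2.88 for Clic6 (log2), and the gap to the next fraction was 0.74, 0.63, 0.56, 0.68 and 0.68 of the whole range. Otx2 was lowest of the 7 Ho fractions in Ho1, at -7.31, with a gap of 0.70 of the range, and was not well above background there. Chance marks about 1 in 20 such groups, and these fractions differ in position along the brain. Aqp1 in Co16, a fraction without a partner that entered no test, stood at 2.05, above each paired Co fraction (highest 2.00).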

How the results depend on the processing

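Of the single-gene values counted under the alternatives, 774 kept their side of the threshold, 14 lost a call, 7 gained one and 4 turned to a call in the other direction. This count does not hold the calls gained for thalamus against hypothalamus without H2 or Ho3, fractions outside the levels compared. With levels averaged over neighbouring pairs, 4 genes were called between the cerebellum and the thalamus level (0 otherwise), all reversed: Folr1 at -0.89, Kl at -0.59, Clic6 at -0.65 and Aqp1 at -1.05, and 1 gene relative to Ttr (Otx2, 1.70). The widened cerebellum level includes the trough fractions C5 and Co6. With probes detected on all arrays only, which leaves fewer of the 7 genes tested, 4 genes varied over the pairs, 3 differed between thalamus and striatum and 4 between cerebellum and medulla. Leaving out 1 array gave 2 to 6 calls for thalamus against striatum and 0 to 1 for thalamus against hypothalamus (1 without H2 or Ho3). For thalamus against hypothalamus, 1 gene (Otx2) was called with the mouse as a replicate block, with slide or scan day as a block, and with wider levels. The replicate block changed no other call of the 7 genes, and raised the calls over all probes from 7109 to 12295 for cerebellum against midbrain and from 22351 to 29572 for variation. A peak fall of 2 gave 35 peaks against 73, and a fall of 0.5 gave 100. The number of mice, 2 per plane, limits the precision.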
